A study of Homo sapiens with 2 samples.

Results

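The 9 genes described here encode matrix metalloproteinases (MMP1, MMP3, MMP10 and MMP14), tissue inhibitors of metalloproteinases (TIMP1, TIMP2 and TIMP3) and the urokinase plasminogen activator with its receptor (PLAU and PLAUR). They were taken by name, and every probe that names one of them and no other gene was used, which gave 10 probes of the 31741 on the array and 9 of the 18336 genes named alone by a probe. PLAUR has 2 probes and each other gene has 1. The samples were SAS cells, an established human line from a squamous cell carcinoma of the tongue, in 2 forms. The shATMIN sample carried a plasmid-encoded short hairpin RNA against ATMIN, a zinc finger transcription factor with a part in the DNA damage response. The control is called neo in the labels, whose protocol gives the same transfection and puromycin text for both samples (3 µg/mL puromycin in 10% serum from 24 h after transfection). What the neo plasmid carried, and whether the resistant cells were 1 clone or a pool, was not given in the sources used here. In its design note the series asks whether a knock-down of ATMIN bears on cancer progression, and for these genes the comparison is shATMIN against neo.

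There was 1 sample per group, so no difference below could be checked against replicates or tested. Each sample has 1 Cy5 intensity per probe, and the labels list 2 arrays behind it. How few arrays there were sets the precision of each value. The median intensity over all probes was 106 in the shATMIN sample and 109 in the neo control, and the upper quartile was 535 and 629. The ATMIN probe that passed the level required for comparison read 61.5 in the shATMIN sample and 105 in the neo control, a log2 difference of -0.76, and its other probe read 26.5 and 51.5. All 8 squamous keratinocyte markers passed that level in the samples, and single markers differed in both directions. TP63, the master regulator of squamous epithelium, read 2060 in the shATMIN sample and 4717 in the neo control, a difference of -1.19, with -0.06 on a second probe. The basal keratin gene KRT14 read 2555 and 1284, a difference of 0.99, and KRT6A read 2024 and 1013. The part of these markers in the results below was not tested. Of the fibroblast markers 4 of 10 passed. The sums over all 10 were 1699 in the shATMIN sample and 1781 in the neo control, mostly from FAP at 983 and 1030. Of the leukocyte markers 6 of 11 passed, with sums over all 11 of 3301 and 3624, mostly from CD14 at 2602 and 2858. Of the endothelial markers 4 of 7 passed, with sums over all 7 of 669 and 680. Of the defining fibroblast collagen genes, COL3A1 read 2.00 and 2.50 but COL1A1 read 423 and 459, and the leukocyte gene PTPRC read 14.0 and 13.5 on its brighter probe.

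Matrix metalloproteinases are zinc-dependent proteases that are made as inactive proenzymes and cut collagens, laminins, fibronectin and other proteins outside the cell. TIMPs bind their active sites and block them. Urokinase, held at the cell surface by its receptor, turns plasminogen into plasmin, which degrades fibrin and matrix and can activate several proenzymes of the metalloproteinase family. In squamous carcinomas of the mouth these proteases are studied for their part in invasion through the basement membrane.

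The windows around the transcription start were available in the RefSeq promoter table (GRCh38.p14) for 6 of the 9 members, with 7 windows, since PLAU has 2 starts. MMP1, MMP3 and TIMP2 were not among them. The windows of MMP14 and PLAUR are shown because both genes read lower in the shATMIN sample, and those of MMP10 and TIMP1 because both read nearly alike in the samples. Each runs 5′ to 3′ on the strand of the gene, from 250 bases before the start to 50 bases after it. Capitals mark 4 motifs searched on both strands, the AP-1 motif TGANTCA, the SP1 motif GGGCGG, the ETS motif AGGAAG and the TATA motif TATAAA, and no matches overlapped in these windows.
MMP14: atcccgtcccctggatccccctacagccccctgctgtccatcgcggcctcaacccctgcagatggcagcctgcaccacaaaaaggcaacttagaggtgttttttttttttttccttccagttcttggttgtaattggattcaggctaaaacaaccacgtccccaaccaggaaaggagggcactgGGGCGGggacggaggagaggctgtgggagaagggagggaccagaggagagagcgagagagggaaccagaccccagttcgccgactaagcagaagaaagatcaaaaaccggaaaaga
PLAUR: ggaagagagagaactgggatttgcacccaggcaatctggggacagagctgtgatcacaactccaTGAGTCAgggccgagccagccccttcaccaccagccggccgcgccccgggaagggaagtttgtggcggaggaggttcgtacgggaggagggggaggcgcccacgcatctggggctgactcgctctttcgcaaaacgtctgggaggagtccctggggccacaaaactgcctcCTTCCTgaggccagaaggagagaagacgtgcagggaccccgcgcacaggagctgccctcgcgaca
MMP10: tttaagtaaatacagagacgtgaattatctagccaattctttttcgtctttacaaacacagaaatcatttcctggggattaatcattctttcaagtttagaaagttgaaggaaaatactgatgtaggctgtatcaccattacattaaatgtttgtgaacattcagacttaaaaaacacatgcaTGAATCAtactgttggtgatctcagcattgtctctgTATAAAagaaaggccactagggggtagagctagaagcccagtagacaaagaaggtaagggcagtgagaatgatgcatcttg
TIMP1: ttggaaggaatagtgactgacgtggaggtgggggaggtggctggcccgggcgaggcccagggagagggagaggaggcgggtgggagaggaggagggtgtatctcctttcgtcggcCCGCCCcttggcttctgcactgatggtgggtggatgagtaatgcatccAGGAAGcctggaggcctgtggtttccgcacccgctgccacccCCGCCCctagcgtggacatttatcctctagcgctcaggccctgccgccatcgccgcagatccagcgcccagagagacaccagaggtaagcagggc
The MMP14 window lies at chr14:22836335-22836634 on the + strand and held 1 SP1 match at -66. The PLAUR window lies at chr19:43670120-43670419 on the - strand and held an AP-1 match, TGAGTCA, at -186 and an ETS match on the opposite strand at -15. The MMP10 window lies at chr11:102780579-102780878 on the - strand and held an AP-1 match, TGAATCA, at -67 and a TATA match at -31. The TIMP1 window lies at chrX:47582186-47582485 on the + strand and held SP1 matches on the opposite strand at -135 and -45 and an ETS match at -87. Positions give the first base of the match counted from the start. Of the 35116 windows of this length in the table, 7.71% held the AP-1 motif, 45.0% the SP1 motif, 33.6% the ETS motif and 11.5% the TATA motif. A match describes the letters of the window and not a site in use. The PLAUR and MMP10 windows, which both held an AP-1 match, belong to genes with log2 differences of -0.49 and -0.02.

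MMP3 and TIMP2 were lower in the shATMIN sample by at least 2-fold, MMP14 and PLAUR were lower by less, and the other 5 members differed by at most 1.10-fold. In RNA from a whole culture, fewer cells that make a transcript and less of it per cell cannot be told apart. A gene was compared where the mean log2(intensity + 1) of its brightest probe reached 5.90, an intensity of 58.9, the 40th percentile of all probes, and all 9 members lay above 58.9 in both samples. Differences are shATMIN minus neo on that log2 scale. Of the 9 members, 2 were at least 2-fold lower and 0 at least 2-fold higher. The background over all 12421 compared genes was 1.34% at least 2-fold lower (166 genes) and 0.459% at least 2-fold higher (57 genes). The median of the members was -0.14, and that of all compared genes -0.16. Values below 0 were found for 7 of the 9 members and for 70.7% of compared genes, so the share of members below 0 was near the background. After scaling of the samples to their 75th percentiles, 4 of 9 members and 41.2% of compared genes were below 0.

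**Figure D1:**
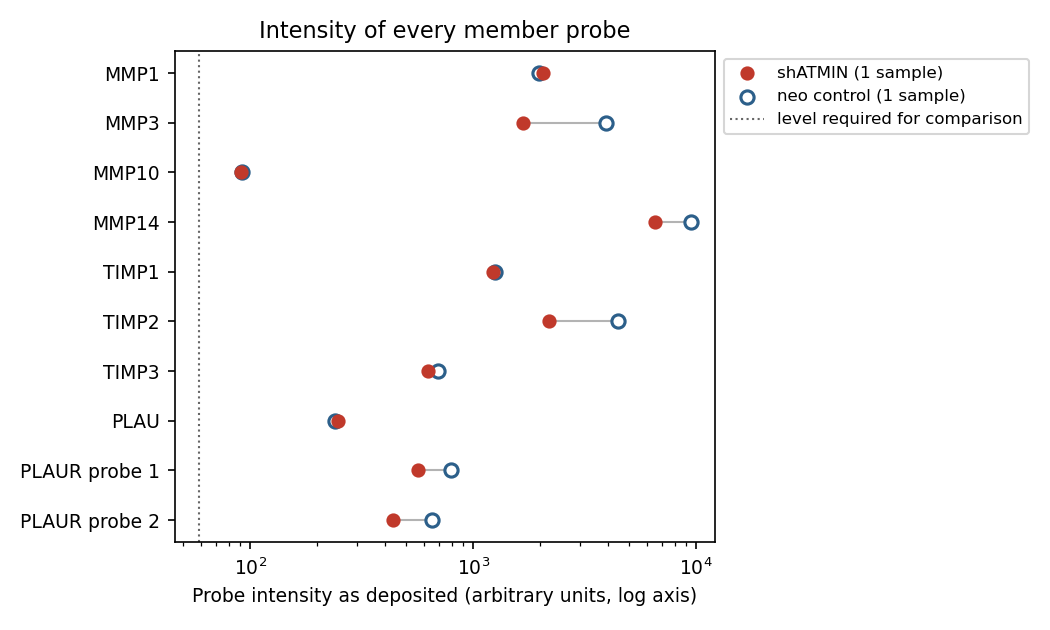
Intensity of each of the 10 member probes (log axis, arbitrary units) in the shATMIN sample (filled) and the neo control (open), 1 sample each, with the dotted line at the level required for comparison, 58.9. MMP3 read 1677 in the shATMIN sample and 3951 in the neo control and TIMP2 read 2182 and 4452, the widest gaps, whereas the points of MMP1, MMP10, TIMP1 and PLAU nearly coincide. Levels of different probes are not comparable with each other.

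Among the secreted metalloproteinases, MMP3 stood apart from MMP1 and MMP10. MMP3, or stromelysin 1, cuts many matrix proteins and activates other metalloproteinase proenzymes, including that of MMP1. It read 1677 in the shATMIN sample and 3951 in the neo control, a difference of -1.24, or 2.36-fold lower. From the lowest, this was rank 36 of 12421 compared genes. MMP1, the interstitial collagenase that opens the triple helix of fibrillar collagens, read 2060 in the shATMIN sample and 1964 in the neo control, a difference of 0.07. MMP10, or stromelysin 2, which is close to MMP3 in sequence and substrates, read 91.0 and 92.0, a difference of -0.02. Both MMP10 values were less than 2-fold above the 58.9 required for comparison.

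MMP10, MMP1 and MMP3 lie next to each other among the protein-coding genes of chromosome 11, in a run of 9 MMP genes from MMP7 to MMP13. All 9 had a probe, and 3 passed the level required for comparison. The other 6 genes (MMP7, MMP20, MMP27, MMP8, MMP12 and MMP13), on 7 probes, read between 3.50 and 55.0 in the samples. MMP13, a further collagenase, read 15.0 in the shATMIN sample and 9.50 in the neo control, and MMP12, the macrophage elastase, read 4.50 and 3.50. At such intensities a difference cannot be read. The log2 difference of MMP3 minus that of its neighbour MMP1 was -1.31, and minus that of MMP10 it was -1.22. Scaling a whole sample by a constant leaves these relative values nearly as they are. Over all settings tried the first lay between -1.31 and -1.30, and the second between -1.22 and -0.97.

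**Figure D2:**
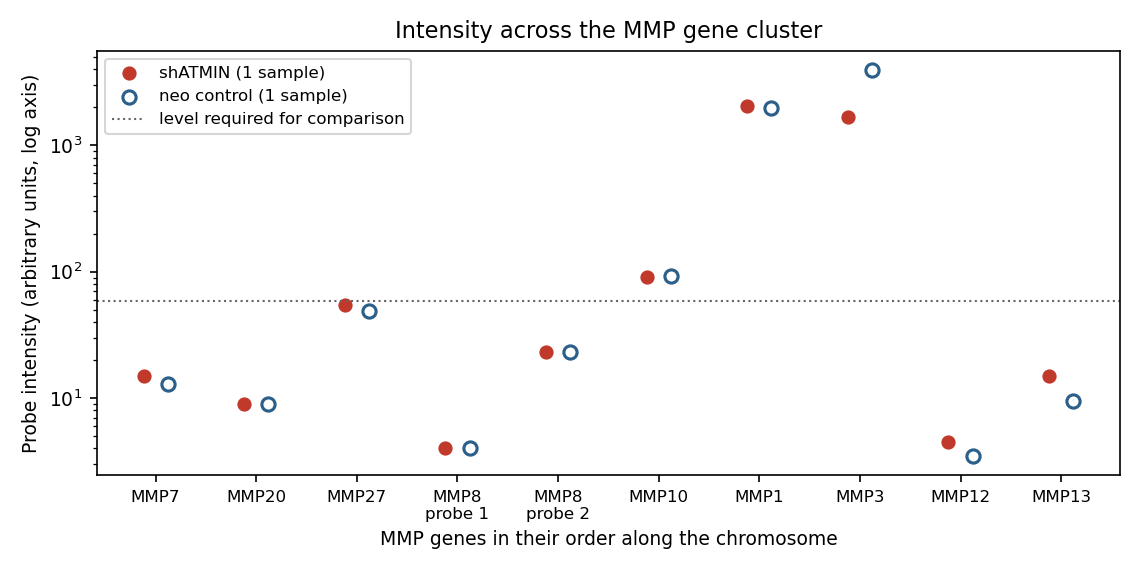
Intensity (log axis, arbitrary units) of every probe of the 9 MMP genes of the chromosome 11 run in their order along the chromosome, in the shATMIN sample (filled) and the neo control (open), 1 sample each. Only MMP10, MMP1 and MMP3 lie above the dotted line at 58.9, and of these MMP3 has the visible gap, with 1677 in the shATMIN sample and 3951 in the neo control.

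MMP14 is a metalloproteinase anchored in the plasma membrane that cuts collagen at the cell surface and activates the proenzyme of the gelatinase MMP2. It read 6538 in the shATMIN sample and 9454 in the neo control, a difference of -0.53, or 1.45-fold lower. Of all compared genes 15.2% had a difference as low or lower. Its log2 difference minus that of MMP1 was -0.60.

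The inhibitors did not move alike. TIMP2 inhibits metalloproteinases and, at low amounts, also bridges MMP14 and the proenzyme of MMP2 so that MMP2 is activated. It read 2182 in the shATMIN sample and 4452 in the neo control, a difference of -1.03, or 2.04-fold lower, at rank 138 of 12421 from the lowest. TIMP1, which binds the proenzyme of MMP9 and is a weak inhibitor of MMP14, read 1230 and 1254, a difference of -0.03. TIMP3, the inhibitor that is bound to the matrix and also acts on ADAM proteases, read 627 and 691, a difference of -0.14. The log2 difference of TIMP2 minus that of TIMP1 was -1.00, and minus that of TIMP3 it was -0.89. TIMP2 and MMP14, whose products act together on MMP2, were both lower in the shATMIN sample. MMP2 itself read 292 in the shATMIN sample and 271 in the neo control, a difference of 0.11.

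Of the urokinase pair, the receptor was lower and the protease was not. PLAUR, which is tethered to the membrane by a lipid anchor and holds urokinase there, read 566 in the shATMIN sample and 794 in the neo control on its brighter probe, a difference of -0.49. On its other probe PLAUR read 438 and 651, a difference of -0.57. The 2 PLAUR probes thus gave 1.40-fold and 1.49-fold lower values, and no other member has a second probe against which to set its value. Over 2973 genes with several compared probes, the log2 differences of the probes of one gene spread around their mean with a pooled SD of 0.34. Of compared genes 18.2% had a difference as low as that of the brighter PLAUR probe or lower. PLAU, the urokinase gene, read 247 in the shATMIN sample and 239 in the neo control, a difference of 0.05. The log2 difference of PLAUR minus that of PLAU was -0.54.

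The 2-fold count of the members depended on how the samples were scaled. MMP3 stood at -1.20 with the samples scaled to their medians and at -1.00, still just past 2-fold, with scaling to the 75th percentile. It stood at -0.97 after quantile normalization and at -0.98 after removal of the trend of the difference on level, both short of 2-fold. TIMP2 passed 2-fold as deposited (-1.03) and with a pseudocount of 16 (-1.02), and not under any of these 4 scalings, where it stood between -1.00 and -0.77. The members at least 2-fold lower numbered 1 with scaling to the median, where the share of compared genes was 1.03%, and 1 with scaling to the 75th percentile, where it was 0.29%. They numbered 0 after quantile normalization, with a share of 0.403%, and 0 with the level trend removed, with 0.378%. In that last setting MMP3 had rank 54 of 12421 from the lowest and TIMP2 rank 203, so both were among the lowest 1.63% of compared genes. MMP14 and both PLAUR probes stayed below 0 under every scaling, between -0.57 and -0.24. MMP1 and PLAU stayed above 0, between 0.05 and 0.34. TIMP1 and TIMP3 were below 0 as deposited and at 0.24 and 0.10 with the level trend removed, and MMP10 lay between -0.02 and 0.22, so the sign of these 3 genes depends on the scaling.

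**Figure D3:**
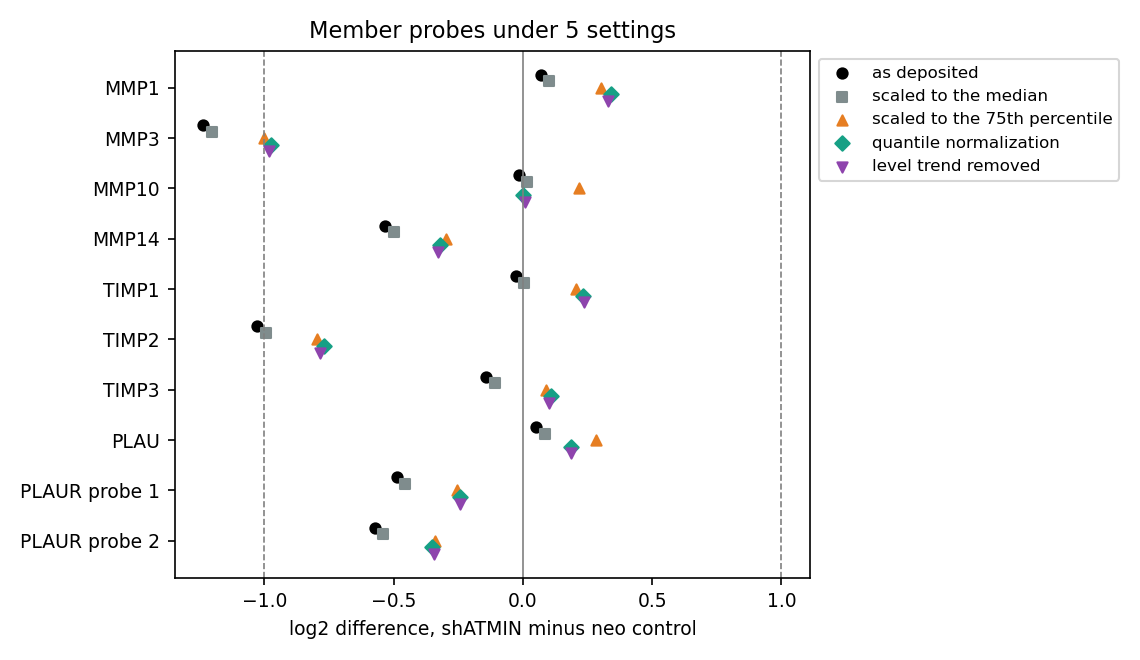
Log2 difference (shATMIN minus neo control, 1 sample each) of the 10 member probes as deposited and under 4 scalings, with dashed lines at 2-fold. MMP3 lies between -1.24 and -0.97 and TIMP2 between -1.03 and -0.77, both left of all other members in each setting, while TIMP1, TIMP3 and MMP10 lie on either side of 0.

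The decimals of the deposited values are those that a mean of 2 whole-number readings, each multiplied by a factor close to 1 (1.00187 and 0.998137 in the shATMIN sample, 1.00223 and 0.997782 in the neo control), would leave. This allowed the readings behind most values under 2000, and a minority of those from 2000 to 3000, to be recovered as a measure of technical spread. Whether they are the 2 listed arrays was not given in the sources used here, and they say nothing of the spread between cultures. For MMP3 the readings were 1655 and 1699 in the shATMIN sample. Its neo control value could come from 6 pairs, and none of them held a reading below 3039. For TIMP2 the shATMIN value lay between 2000 and 3000, where the method was only weakly checked, and its readings were 2177 and 2186. The 8 possible neo pairs of TIMP2 held none below 3128. For both genes every shATMIN reading was below every possible neo reading, but this adds nothing to the deposited values. With the readings of a sample held within 2-fold of each other, a deposited difference of more than 2-fold already fixes that separation.

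The brighter PLAUR probe had readings of 558 and 574 in the shATMIN sample and of 762 and 826 in the neo control. The other PLAUR probe had 436 and 439, against 645 and 658 in the neo control. TIMP3 had 621 and 632, against 666 and 716 in the neo control. The shATMIN readings of these 3 probes lay below both neo readings. Such a separation is common here: of 9322 compared genes with 1 possible pair in each sample, 53.4% had both shATMIN readings below both neo readings and 19.1% had both above. MMP1, with 1999 and 2122 in the shATMIN sample and 1933 and 1994 in the neo control, was of the second kind by a narrow margin. Its shATMIN value also lay between 2000 and 3000, where the method was only weakly checked. The readings overlapped for MMP10, with 89.8 and 92.2 in the shATMIN sample and 90.2 and 93.8 in the neo control. They also overlapped for TIMP1, with 1085 and 1375 against 1201 and 1307, and for PLAU, with 224 and 271 against 234 and 243. The shATMIN readings of TIMP1 and PLAU were 0.34 and 0.27 apart on the log2 scale, and so further apart than the samples. For MMP14, whose intensities were too high for this step, 16 pairs were possible in the shATMIN sample and 28 in the neo control, and its readings could not be told.

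**Figure D4:**
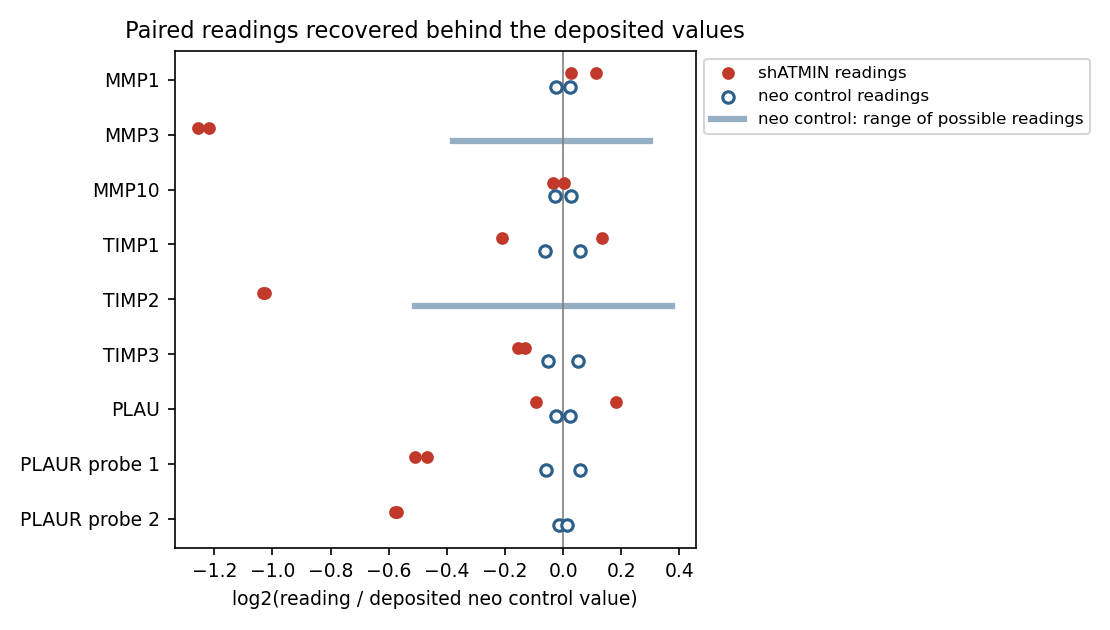
Recovered readings of 9 member probes as log2 of the reading over the deposited neo control value, with the shATMIN readings filled and the neo control readings open, and a bar for the range of possible neo readings of MMP3 and TIMP2. The shATMIN readings of MMP3, TIMP2, TIMP3 and both PLAUR probes lie left of their neo readings or bar, and those of MMP10, TIMP1 and PLAU overlap them. For MMP3 and TIMP2 the separation was fixed in advance by the 2-fold limit on a pair and the deposited values.

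The rest of the protease system was described by 6 lists of genes that hold none of the members. Their counts stand beside 70.7% of all compared genes below 0, 1.34% at least 2-fold lower and 0.459% at least 2-fold higher, and nothing is read from a list as particular to it. The lists were chosen with earlier results of these data known. With scaling to the 75th percentile, 41.2% of all compared genes were below 0, 0.29% were at least 2-fold lower and their median was 0.07. After quantile normalization or removal of the level trend that median was 0.00, and the share below 0 was not counted. Of 19 other matrix metalloproteinases 8 were compared, with 5 below 0, 3 above and a median of -0.06, against -0.16 over all compared genes, and 0 passed 2-fold. MMP15, a membrane-bound relative of MMP14, read 86.0 in the shATMIN sample and 131 in the neo control, a difference of -0.60. MMP11, or stromelysin 3, read 65.0 and 82.0, a difference of -0.33, and the membrane-bound MMP25 stood at -0.18. The gelatinase MMP9, named here after its value was seen, read 101 and 104. Scaled to the 75th percentile, 2 of the 8 were below 0 and the median was 0.17.

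Of 10 further inhibitors and partners of MMP14, 8 were compared, with 5 below 0 and a median of -0.37. BSG, or basigin, a surface glycoprotein known to induce metalloproteinases in neighbouring cells, read 4236 in the shATMIN sample and 7202 in the neo control, a difference of -0.77, and -0.66 on its second probe. CD44, a hyaluronan receptor that MMP14 cuts, stood at -0.67, and at 0.09 on a dimmer probe. The proprotein convertases PCSK6 and FURIN, of which furin removes the propeptide of MMP14, stood at -0.57 and -0.56. PCSK6 stood at -0.31 on another compared probe. CAV1, the caveolin 1 gene, was near the top of the scanner range in the samples, and its difference cannot be read. With scaling to the 75th percentile 4 of the 8 genes were below 0 and the median was -0.13, and with the probes of each gene averaged it was -0.23.

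Of 21 genes of the plasminogen system 15 were compared, with 11 below 0, 4 above and a median of -0.39. PLAT, the tissue plasminogen activator, read 913 in the shATMIN sample and 1468 in the neo control, a difference of -0.68. ST14, the membrane serine protease matriptase, which can activate urokinase, read 192 and 343, a difference of -0.83. SPINT1 and SPINT2, Kunitz-type inhibitors of matriptase, stood at -0.84 and -0.52. Plasminogen itself, PLG, read between 3.50 and 8.50 on its 3 probes in the samples. ENO1, counted below 0, was in both samples at the top of the scale, and its direction cannot be read. With scaling to the 75th percentile 8 of 15 were below 0 and the median was -0.16, when the median of all compared genes was 0.07. Without a dim filter the list's median was -0.07.

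Of 19 ADAM, ADAMTS and related proteases 11 were compared, with 8 below 0 and a median of -0.11. ADAMTS6 stood at -0.61 on its brightest probe and at -0.29 on another, and ADAM12 at -0.54 and 0.02. ADAM17, the sheddase of tumour necrosis factor and of ligands of the EGF receptor that TIMP3 inhibits, read 1250 in the shATMIN sample and 1682 in the neo control, a difference of -0.43. BMP1, the procollagen C-proteinase, stood at -0.34. After scaling to the 75th percentile this count was 4 of 11 and the median was 0.12.

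Of 22 matrix substrates 18 were compared, with 12 below 0 and a median of -0.12, and 2 were at least 2-fold higher, SPP1 at 2.81 and FN1 at 1.80. Both products are cut by MMP3, and a link between these RNA differences and that of MMP3 was not tested. A second FN1 probe is listed at 0 in both samples. The count below 0 was 5 of 18 with scaling to the 75th percentile, and 6 after quantile normalization or removal of the level trend, and the median was then above 0, at 0.12, 0.09 and 0.09.

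Of 19 AP-1, ETS and other factors known to act on promoters of these proteases 17 were compared, with 14 below 0 and a median of -0.50, and 2 were at least 2-fold lower. They were the PEA3 family genes ETV4 at -1.09 and ETV5 at -1.03, with 0.18 on a second ETV5 probe. With scaling to the 75th percentile 12 of the 17 were below 0, the median was -0.27 and 0 passed 2-fold. In that setting 41.2% of all compared genes were below 0, and their median was 0.07. After removal of the level trend the counts were 12 of 17 below 0, with a median of -0.30, and 0 past 2-fold. With the probes of each gene averaged the median was -0.33. Dimmer probes of ELK4, ELF3 and ETS2 stood between -0.16 and -0.01.

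**Figure D5:**
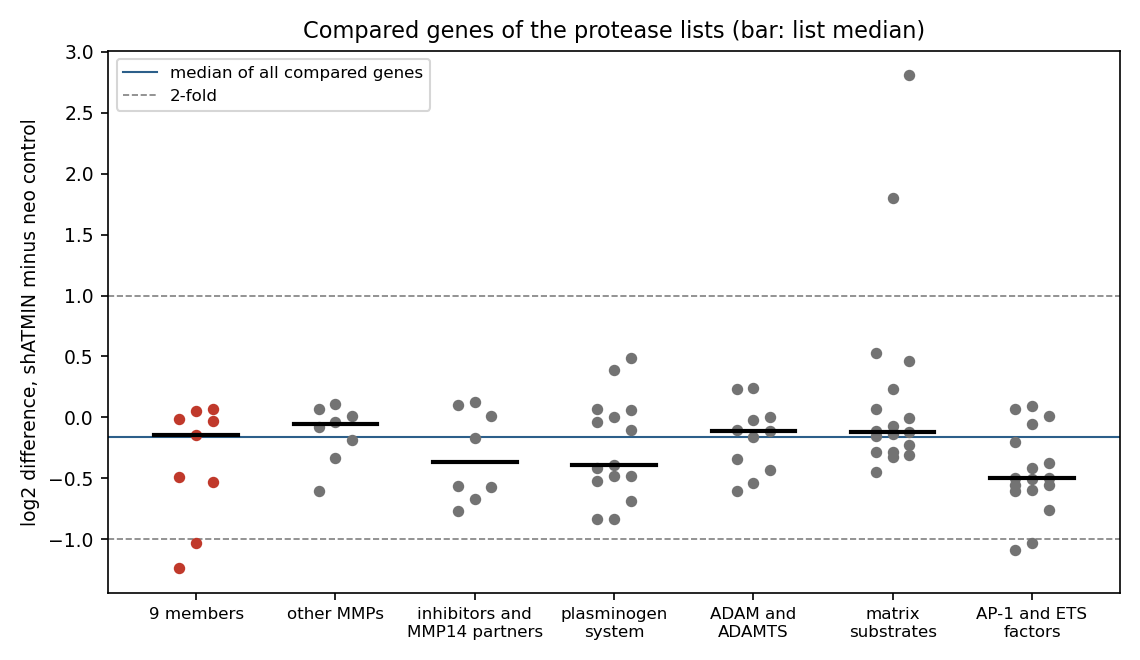
Log2 difference (shATMIN minus neo control, 1 sample each) of each compared gene of the 9 members and of 6 protease lists, with a bar at each list's median and the blue line at the median of all compared genes, -0.16. The members spread from -1.24 to 0.07 around a median of -0.14, and the points past 2-fold in the other lists are SPP1, FN1, ETV4 and ETV5.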

How the data were processed

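Intensities were deposited by the authors as 1 value per probe and sample. Per the labels, 1 µg of total RNA (RIN of at least 8) was amplified and labelled with Cy5. That the values are linear and background-subtracted was read from the values themselves. For the scanner, background correction and normalization, the steps were not given in the sources used here. Probe names came from the platform annotation, updated through RefSeq symbols. Of 31741 probes 24740 named 1 gene, 977 several and 6024 none, and no probe of several genes named a member.

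Values below 0 were set to 0 and taken as log2(intensity + 1), with shATMIN minus neo as the difference. Each gene was represented by its brightest probe, with every probe shown for members. Every member probe was named, and from each list the genes past 2-fold or otherwise up to 4 with the greatest difference. Members and lists were chosen with earlier results of these data known. Alternatives covered scaling, the level trend (loess, span 0.3), the pseudocount, the dim filter and the choice of probe. The number of unassigned columns was 0.

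Readings were recovered by finding whole-number pairs within 2-fold of each other that give the value within a relative tolerance of 1.5e-07. From 1000 to 2000, 99.2% of shATMIN and 99.9% of neo values had 1 pair. A step 0.83 times as large left 25.8% and 43.3% of them with none, against 0% and 0.0950%. The same wrong step still gave exactly 1 pair for 59.7% and 31.8%, so a single pair in this range is a limited check too. From 2000 to 3000, 26.2% of shATMIN and 48.3% of neo values had 1 pair, and the wrong step left 0% and 2.79% with none. A match in that range, where the shATMIN values of TIMP2 and MMP1 lie, is therefore a weak check on the method. Tested on simulated data, 92.0% of 200 genes with a set difference were recovered among 12428, and 100% of 3970 resolved pairs were right. The set difference was larger than that of any member, and the noise was chosen and not estimated from these samples. The simulated pairs had a first reading below 2000, so they hardly cover the range above it. Python 3.11.15, pandas 2.3.3, NumPy 2.4.6, statsmodels 0.14.6 and matplotlib 3.10.9 were used.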

Additional observations from a re-analysis of the deposited data

How the results depend on the processing

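No paired analysis was possible because each group has 1 sample and only the replicate number 1 is shared. The differences of the 10 member probes moved by less than the SD of 0.34 between probes of a gene under all 6 alternatives, 60 of 60 values. This tolerance is wide: TIMP2 passed 2-fold only as deposited, with no pseudocount and with a pseudocount of 16, and MMP3 did not pass it after quantile normalization or removal of the level trend. Compared genes at least 2-fold lower, 166 as deposited, numbered 36 with scaling to the 75th percentile, 50 after quantile normalization, 47 after removal of the level trend and 1517 at 1.5-fold. Those at least 2-fold higher, 57 as deposited, numbered 122, 96, 94 and 236 in the same order, 154 without a dim filter and 29 with the filter at the 60th percentile. With scaling to the 75th percentile the genes below 0 were 2 of the other metalloproteinases, 4 of the ADAM list and 5 of the matrix substrates. The share of all compared genes below 0 was then 41.2%, against 70.7% as deposited. The substrates had 6 after quantile normalization and 6 after removal of the level trend, and the other metalloproteinases had 9 without a dim filter, where more genes are counted. The medians of the other metalloproteinases, the ADAM list and the substrates turned above 0 with scaling to the 75th percentile, as did that of all compared genes. The settings with no pseudocount and with paired readings within 1.5-fold were chosen after seeing the data. Intensities under 58.9 limit what can be said of PLG and of 6 of the MMP genes on chromosome 11.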

Other observations

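Several genes of the protease lists differed in the same direction on more than 1 probe, and the following were picked after their values were seen. ADAM9, a membrane-bound disintegrin protease, read 1460 in the shATMIN sample and 1238 in the neo control on 1 probe and 967 and 667 on another, differences of 0.24 and 0.53. COL5A1, a chain of the fibril-forming type V collagen, read 2949 and 2047 on 1 probe and 2173 and 1599 on another, differences of 0.53 and 0.44. SERPINB2, an inhibitor of urokinase, read 29707 and 38987 on 1 probe and 22086 and 31475 on another, differences of -0.39 and -0.51. On single probes at compared levels, SERPINE2, an inhibitor of urokinase and thrombin, read 1199 in the shATMIN sample and 855 in the neo control, a difference of 0.49, and S100A10, which binds plasminogen at the cell surface together with annexin A2, read 9022 and 6907, a difference of 0.39.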
